A study of Arabidopsis thaliana with 6 samples.

Results

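Expansins and xyloglucan endotransglucosylases/hydrolases (XTH) are families that include wall-loosening proteins of growing plant cells. Their transcripts were read here in whole Arabidopsis seedlings. The members were all probe sets assigned to a single gene whose RefSeq symbol is EXPA, EXPB, EXLA, EXLB or XTH followed by digits, and 27 of the 13286 genes read by their own probe set met this rule. They comprised 10 α-expansins (EXPA), 4 β-expansins (EXPB), 3 EXLA and 1 EXLB expansin-like genes, and 9 XTH genes. RefSeq holds 64 genes with such symbols, and the other 37 were not analysed here, because no probe set was assigned to them alone in the table used. Each member had 1 probe set, and none of these was marked as cross-hybridizing.

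The samples were 10-day-old seedlings of the Columbia ecotype grown on MS medium without stress, with 3 arrays of wild type (WT) and 3 arrays of seedlings over-expressing the rice homeobox gene OsHOX24. The transgenic plants are named in the paper as the homozygous line HZIP1-2.3, in which the constitutive 35S promoter drives OsHOX24, and this genotype is written 35S::OsHOX24. A single transgenic line was used, so an effect of the transgene and of that line cannot be told apart. The comparison asked which transcripts differed between the genotypes in the absence of stress. No probe set for the rice transgene was named here, so its level was not checked. The methods describe the arrays of a genotype as independent biological replicates.

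Expansins loosen the contacts between cellulose and the other wall polymers without cutting the chains, and act best at acid pH. Wall-loosening activity is known for α- and β-expansins, whereas the EXLA and EXLB proteins are grouped with them by sequence. XTH proteins cut the backbone of xyloglucan, the main hemicellulose of these walls, and most of them join the cut end to another xyloglucan chain, while some release it by hydrolysis. Both families are large, and single members are known for particular tissues. EXPA7 and EXPA18 belong to root hair cells, in which they take part in the start and growth of the hair. XTH26 is also known from root hairs.

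No member was past the thresholds of the study (a change of 2-fold or more with an unadjusted p no higher than 0.05) in either direction. Of the 27 genes, 0 were called higher and 0 lower in 35S::OsHOX24 with limma, a linear model with a pooled spread, against 0.914% of the 22746 probe sets called higher and 1.61% called lower. Of all calls, 36.2% were thus higher, or 46.6% after quantile normalization. At an adjusted p under 0.05 (limma, Benjamini-Hochberg over all probe sets) 0 members and 0% of all probe sets were called. At an unadjusted p under 0.05 there were 0 of 27 members and 785 of 22746 probe sets with limma. With the methods' t-test there were 0 members and 798 probe sets. At such shares 27 genes would give few calls or none, so these counts of 0 do not set the members apart. Every member had an adjusted p of 1 with limma. The values of WT and 35S::OsHOX24 arrays overlapped for all 27 genes, while 7.17% of all probe sets had no overlap. The median log2 difference (35S::OsHOX24 minus WT) was 0.05 over the members and -0.03 over all probe sets, with 14 members above 0 and 13 below.

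**Figure D1:**
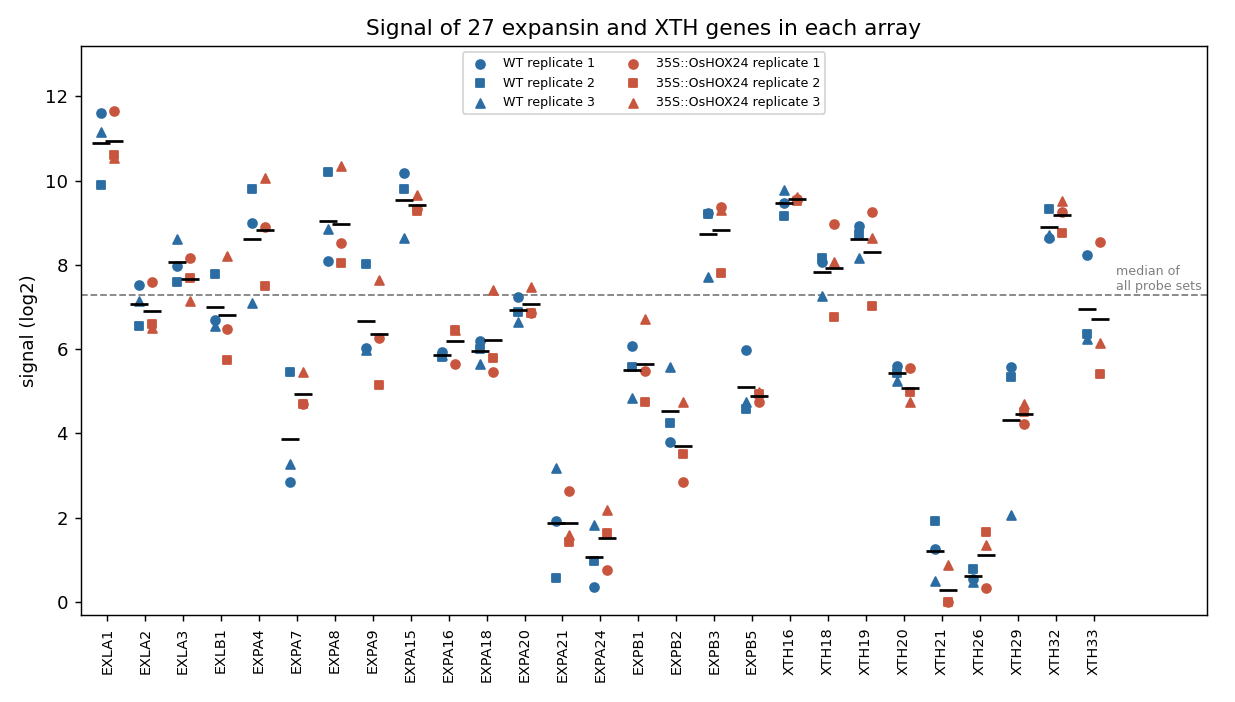
Signal (log2) of the 27 genes in each array, with WT in blue, 35S::OsHOX24 in red, a marker shape for each replicate number and a black bar at each genotype mean. The blue and red points overlap for every gene, and the dashed line is the mean of the array medians over all probe sets.

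The signals are MAS5 values on the log2 scale. The signal of a probe set depends on its own probes, so genes were not ranked against each other by level, and each was set only against its array's median over all probe sets, which was 7.24 to 7.42. EXLA1 and XTH16 were above the 75th percentile of the probe sets in all 6 arrays. EXPA8, EXPA15, EXPB3 and XTH32 were above the median in all 6 arrays without reaching that percentile in each. At the other end, 11 members were below the median in every array, namely EXPA7, EXPA16, EXPA21, EXPA24, EXPB1, EXPB2, EXPB5, XTH20, XTH21, XTH26 and XTH29. The remaining 10 were above the median in some arrays and below it in others. Among all probe sets, 43.3% were above the median in every array and 43.2% in none. In whole seedlings, fewer cells of a type and less transcript per cell cannot be told apart.

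The root hair expansin gene EXPA7 (AT1G12560) had signals of 2.86, 5.47 and 3.28 (log2) in WT replicates 1, 2 and 3 and of 4.69, 4.70 and 5.45 in 35S::OsHOX24. WT replicate 2 was the highest of all 6 arrays, and the other WT arrays were lower than every transgenic array. The WT mean was 3.87 ± 1.4 (SD, n = 3), and that of 35S::OsHOX24 was 4.94 ± 0.44 (SD, n = 3). The log2 difference of 1.08 (standard error 0.72, 95% interval -0.67 to 2.83) was the only one of a member at 2-fold or more. It had an unadjusted p of 0.184 with limma. A 2-sided exact permutation test gave p = 0.4, but with 3 arrays against 3 it cannot go below 0.1, whatever the difference. The size of the EXPA7 difference varied with the arrays used. Leaving out 1 array moved the log2 difference over a range of 0.57 (without WT replicate 1) to 1.88 (without WT replicate 2), and it was past the thresholds of the study without WT replicate 2 alone (unadjusted p = 0.00348 with limma). When 16 was added to each linear signal before taking log2, so that low signals weigh less, the log2 difference was 0.51. EXPA7 was in the lowest of 4 equal groups of probe sets by signal, in which the median pooled SD within genotypes was 1.17.

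EXPA18 (AT1G62980), the other root hair α-expansin, had signals of 6.20, 6.0 and 5.64 (log2) in WT and of 5.45, 5.78 and 7.42 in 35S::OsHOX24. Replicate 3 of 35S::OsHOX24 was the highest, and the other transgenic arrays lay within or below the WT values. The log2 difference was 0.27 (standard error 0.55, 95% interval -1.07 to 1.60), and it became -0.33 without that array. XTH26 (AT4G28850) was at 0.55, 0.79 and 0.48 (log2) in WT and at 0.32, 1.67 and 1.36 in 35S::OsHOX24. These are among the lowest signals of an array, where the lowest of 4 equal groups of probe sets by signal had a median SD of 1.17. The XTH26 difference of 0.51 (standard error 0.39) lies below that and is about the size of its own pooled SD, 0.51. The XTH26 difference was 0.06 with 16 added to the linear signals, and without 1 array it ranged from 0.23 (without 35S::OsHOX24 replicate 2) to 0.90 (without 35S::OsHOX24 replicate 1, unadjusted p = 0.0247 with limma). With limma and all 6 arrays, no root hair member had an unadjusted p under 0.05 (EXPA7 0.184, EXPA18 0.645, XTH26 0.244). EXPA7 and EXPA18 shared no order of arrays in WT, where EXPA7 was highest in replicate 2 and EXPA18 in replicate 1, and both were highest in replicate 3 of 35S::OsHOX24.

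A list of 60 root hair genes, which includes these members, had 5 genes that could be read, and 0 of them were called. The other 2 were FER (AT3G51550), the FERONIA receptor kinase needed for root hair integrity, and SCN1 (AT3G07880), a RhoGDI that confines hair outgrowth to a single site. FER had a log2 difference of -0.17 (standard error 0.23) and SCN1 of -0.07 (standard error 0.22). Both genes are also expressed outside root hairs and were above the array median in every array. Of 15 listed genes of epidermal patterning, JKD, a zinc finger protein, and TRY, a small MYB protein that represses trichome fate, could be read, and their log2 differences were 0.09 and -0.09. The list of root markers outside hairs had no gene with a probe set named here, so the share of root in each sample was not checked.

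The genes whose array values were most like those of EXPA7 were found among the 5136 genes outside the families that were above the median in every array. After each gene was centred on its mean over 6 arrays, the root mean square difference from EXPA7 was 0.43 (log2) for AT1G62422, 0.44 for AT3G08780, 0.46 for AT3G56360, 0.50 for AT2G36320 and 0.51 for AT1G68440. AT3G56360, for instance, was at 10.7, 12.7 and 11.5 (log2) in WT and at 11.7, 11.8 and 12.6 in 35S::OsHOX24. It was highest in replicate 2 of WT and in replicate 3 of 35S::OsHOX24, as EXPA7 was, which the choice by likeness favours. How close the nearest of 5136 genes would come by chance was not tested.

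Of the other α-expansin genes, EXPA15, EXPA16, EXPA20, EXPA21 and EXPA24 had differences no larger than their pooled SD within genotypes. EXPA16 was at 5.93, 5.81 and 5.85 (log2) in WT and at 5.66, 6.46 and 6.45 in 35S::OsHOX24, a log2 difference of 0.32 (95% interval -0.39 to 1.04) beside a pooled SD of 0.33. Its WT arrays lay within 0.12 of each other, and the transgenic arrays lay on both sides of them. EXPA24 was at 0.36, 0.98 and 1.83 in WT and at 0.77, 1.63 and 2.18 in 35S::OsHOX24, with a log2 difference of 0.47 (standard error 0.52). At these low signals the EXPA24 difference was 0.06 with 16 added to the linear signals, and it ranged from 0.12 (without WT replicate 1) to 0.86 (without WT replicate 3) when 1 array was left out. EXPA24 and EXPA21, which lie on the same chromosome with 4 protein-coding genes between them in the RefSeq order, were both in the lowest of the 4 groups by signal. EXPA21 had a log2 difference of -0.01 (standard error 0.72). EXPA15 had a log2 difference of -0.12 (unadjusted p = 0.792 with limma) and EXPA20 one of 0.15 (unadjusted p = 0.634 with limma). The interval of EXPA20, -0.57 to 0.87, stayed within 2-fold.

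The α-expansin genes EXPA4, EXPA8 and EXPA9 differed more between arrays of one genotype than between the genotypes. EXPA8 (AT2G40610) was at 8.09, 10.2 and 8.86 (log2) in WT and at 8.51, 8.05 and 10.4 in 35S::OsHOX24. A single array in each genotype, WT replicate 2 and 35S::OsHOX24 replicate 3, was thus well over 1 log2 unit above the others. EXPA9 (AT5G02260) was highest in the same 2 arrays, at 6.02, 8.03 and 5.98 in WT and at 6.26, 5.16 and 7.65 in 35S::OsHOX24. EXPA4 (AT2G39700) was at 9.0, 9.80 and 7.09 in WT and at 8.90, 7.49 and 10.1 in 35S::OsHOX24, so that WT replicate 3 and 35S::OsHOX24 replicate 2 were also low. The mean of EXPA4 was 8.63 ± 1.39 (SD, n = 3) over the WT arrays and 8.82 ± 1.29 (SD, n = 3) over the transgenic arrays. The log2 differences were 0.20 for EXPA4, -0.08 for EXPA8 and -0.32 for EXPA9, with standard errors of 0.91, 0.79 and 0.83.

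Of the β-expansin genes, EXPB2 (AT1G65680) had the largest difference, with signals of 3.79, 4.26 and 5.58 (log2) in WT and of 2.85, 3.52 and 4.75 in 35S::OsHOX24. Replicate 3 was the highest array of both genotypes, and the values overlapped. The log2 difference was -0.84 (standard error 0.66, 95% interval -2.45 to 0.78; exact permutation test, 2-sided, p = 0.4). Without 1 array the EXPB2 difference ranged from -1.36 (without 35S::OsHOX24 replicate 3) to -0.32 (without WT replicate 3). EXPB2 was in the lowest of the 4 groups by signal, with a median SD of 1.17, and its difference was -0.43 with 16 added to the linear signals. EXPB3 (AT4G28250), which was above the array median throughout, was at 9.25, 9.21 and 7.72 in WT and at 9.37, 7.81 and 9.31 in 35S::OsHOX24. Each genotype thus had 1 array about 1.5 log2 units below the others, WT replicate 3 and 35S::OsHOX24 replicate 2, and the genotype difference was 0.11. EXPB1 and EXPB5 had log2 differences of 0.15 and -0.21.

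The 3 EXLA genes had similar orders of arrays. EXLA1 (AT3G45970) was at 11.6, 9.90 and 11.2 (log2) in WT and at 11.7, 10.6 and 10.5 in 35S::OsHOX24, a mean of 10.9 ± 0.89 (SD, n = 3) against 10.9 ± 0.62 (SD, n = 3). EXLA2 (AT4G38400) was at 7.53, 6.54 and 7.15 in WT and at 7.60, 6.61 and 6.51 in 35S::OsHOX24. EXLA3 (AT3G45960), which neighbours EXLA1 with no protein-coding gene between them in RefSeq, was at 7.97, 7.60 and 8.62 in WT and at 8.16, 7.70 and 7.15 in 35S::OsHOX24. For each of the 3 genes WT replicate 2 was the lowest WT array, 35S::OsHOX24 replicate 1 was the highest transgenic array and replicate 3 the lowest. Their log2 differences were 0.05, -0.17 and -0.39, and that of EXLA3 had a standard error of 0.39. EXLB1 (AT4G17030) followed another order, at 6.69, 7.78 and 6.54 in WT and at 6.48, 5.73 and 8.22 in 35S::OsHOX24, with a difference of -0.19. The arrays highest for EXLB1 were thus those highest for EXPA8 and EXPA9.

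Among the XTH genes, XTH21 (AT2G18800), known from root growth, had the lowest p of all members. It was at 1.25, 1.91 and 0.49 (log2) in WT and at 0.88 in replicate 3 of 35S::OsHOX24, while replicates 1 and 2 were listed at 0. A value listed at 0 stands for the lowest signals and may be a failed estimate, and XTH21 was the only member with one. The log2 difference was -0.93 (95% interval -2.03 to 0.18, unadjusted p = 0.0869 with limma; exact permutation test, 2-sided, p = 0.2), or -0.10 with 16 added to the linear signals. XTH21 was past the thresholds of the study without WT replicate 3 (log2 difference -1.29), without 35S::OsHOX24 replicate 3 (-1.22), which leaves the 2 transgenic arrays listed at 0, and with array weights (-1.02). It was -0.58 without WT replicate 2 (unadjusted p = 0.236 with limma) and -0.78 without either of the arrays listed at 0. XTH20 (AT5G48070) was at 5.61, 5.44 and 5.25 in WT and at 5.55, 4.98 and 4.75 in 35S::OsHOX24, so that the first transgenic array lay among the WT values and the other 2 lay below them. Its log2 difference was -0.34 (standard error 0.29, 95% interval -1.04 to 0.36, unadjusted p = 0.279 with limma). The exact permutation test, 2-sided, gave p = 0.3.

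The member with the smallest spread was XTH16 (AT3G23730), which was at 9.47, 9.16 and 9.78 (log2) in WT and at 9.56, 9.52 and 9.62 in 35S::OsHOX24. The genotype means were 9.47 ± 0.31 (SD, n = 3) and 9.56 ± 0.05 (SD, n = 3), and the 95% interval of the log2 difference, -0.50 to 0.69, lay within 2-fold in both directions. XTH32, grouped by sequence with the XTH proteins that hydrolyse xyloglucan, differed by 0.28 (log2, standard error 0.32). For XTH16 and EXPA20 alone the interval stayed within 2-fold, whereas for the other 25 members a 2-fold difference in one direction or both lay inside it. Among all probe sets, 40.8% had an interval within 2-fold.

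**Figure D2:**
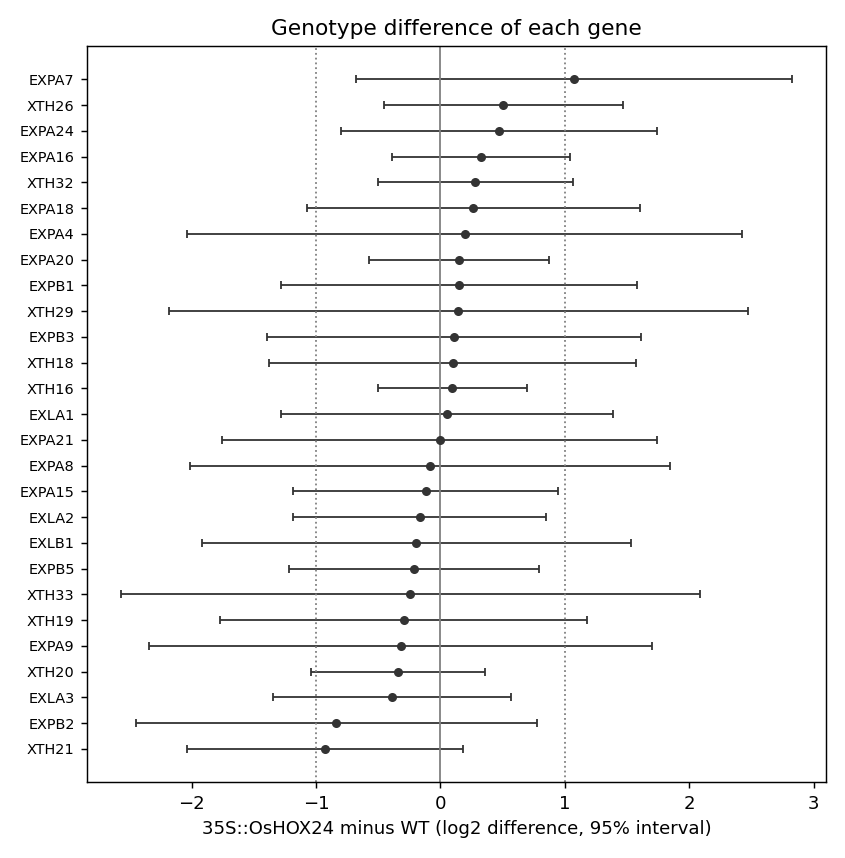
Difference between 35S::OsHOX24 and WT (log2) for each of the 27 genes, as a point with its 95% interval from limma, ordered by size, with dotted lines at 2-fold. Every interval includes 0, and those of XTH16 and EXPA20 stay between the dotted lines.

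XTH18 (AT4G30280) and XTH19 (AT4G30290) are direct neighbours with no protein-coding gene between them in the RefSeq order. XTH18 was at 8.06, 8.16 and 7.26 (log2) in WT and at 8.97, 6.76 and 8.07 in 35S::OsHOX24, and XTH19 at 8.93, 8.73 and 8.18 in WT and at 9.27, 7.03 and 8.64 in 35S::OsHOX24. Both genes were lowest in WT replicate 3 and 35S::OsHOX24 replicate 2, and highest of all in 35S::OsHOX24 replicate 1. Their log2 differences were 0.10 and -0.30, each with a standard error of 0.60. XTH33 (AT1G10550), predicted to be anchored in the plasma membrane, was at 8.23, 6.36 and 6.25 in WT and at 8.55, 5.41 and 6.15 in 35S::OsHOX24. The replicate 1 arrays were thus the 2 high ones, and the difference between the genotype means was -0.24 (standard error 0.95). XTH29 spanned the widest range of all members, 2.06 in WT replicate 3 against 4.22 to 5.59 in the other 5 arrays, and had a log2 difference of 0.15 (standard error 0.95).

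The spread within genotypes exceeded the genotype difference for most members. The difference was larger than the pooled SD within genotypes for 3 of 27 genes, EXPA7, XTH20 and XTH21, against 22.6% of all probe sets. For all 27 genes it was smaller than the range of the arrays within at least 1 of the genotypes. The share of all probe sets for which this held was not counted, so this count shows nothing particular to the members. The pooled SD had a median of 0.77 (log2) over the members and of 0.45 over all probe sets. The spread of all probe sets differed with their signal, so the comparison was also made within the 4 equal groups of probe sets by signal, counted from the lowest. In the third group, all 7 members (EXLA3, EXPA4, EXPA8, EXPB3, XTH18, XTH19 and XTH32) had an SD above the median of that group, 0.34, and in the second group 7 of 10 members were above its median of 0.48. In the lowest group 1 of 7 members was above the median of 1.17, and in the highest 2 of 3 were above 0.29. Over the groups, 17 of the 27 members were above. These counts describe genes that share the same 6 arrays and were not tested.

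**Figure D3:**
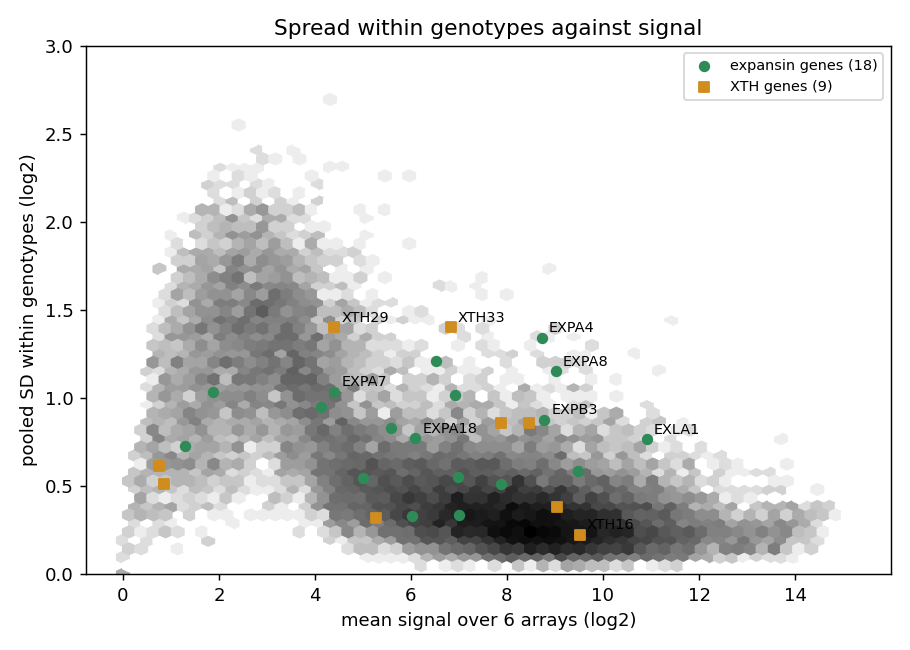
Pooled SD within genotypes (log2) against the mean signal over 6 arrays (log2), with all probe sets in grey (darker for more probe sets, on a log scale), expansin genes as green circles and XTH genes as orange squares. EXPA4, EXPA8, XTH33 and EXLA1 lie above the bulk of probe sets with a like signal, and XTH16 lies within it.

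The members differed in which arrays were high. Of the 27 genes, 7 were highest in WT replicate 2 among the WT arrays and in replicate 3 among the 35S::OsHOX24 arrays (EXLB1, EXPA4, EXPA7, EXPA8, EXPA9, XTH21 and XTH32), and 16.8% of all probe sets had this order. Another 6 genes were highest in replicate 1 of both genotypes (EXLA1, EXLA2, EXPB3, XTH19, XTH20 and XTH33), as were 13.1% of all probe sets. A further 6 were highest in WT replicate 1 and 35S::OsHOX24 replicate 3 (EXPA15, EXPA18, EXPA20, EXPB1, EXPB5 and XTH29), against 8.6% of all probe sets. The lowest arrays were WT replicate 3 and 35S::OsHOX24 replicate 2 for 9 genes (EXLB1, EXPA4, EXPA9, EXPA15, EXPB1, EXPB3, XTH18, XTH19 and XTH33), against 14.3% of all probe sets. Conversely, 0 members were highest in this last pair of arrays, as 17.9% of all probe sets were. Relative to the genotype mean, the median deviation over the members was -0.31 (log2) in WT replicate 3, -0.30 in 35S::OsHOX24 replicate 2 and 0.33 in 35S::OsHOX24 replicate 3, and that over all probe sets stayed between -0.07 and 0.04 in every array. These orders were described after the values had been seen.

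**Figure D4:**
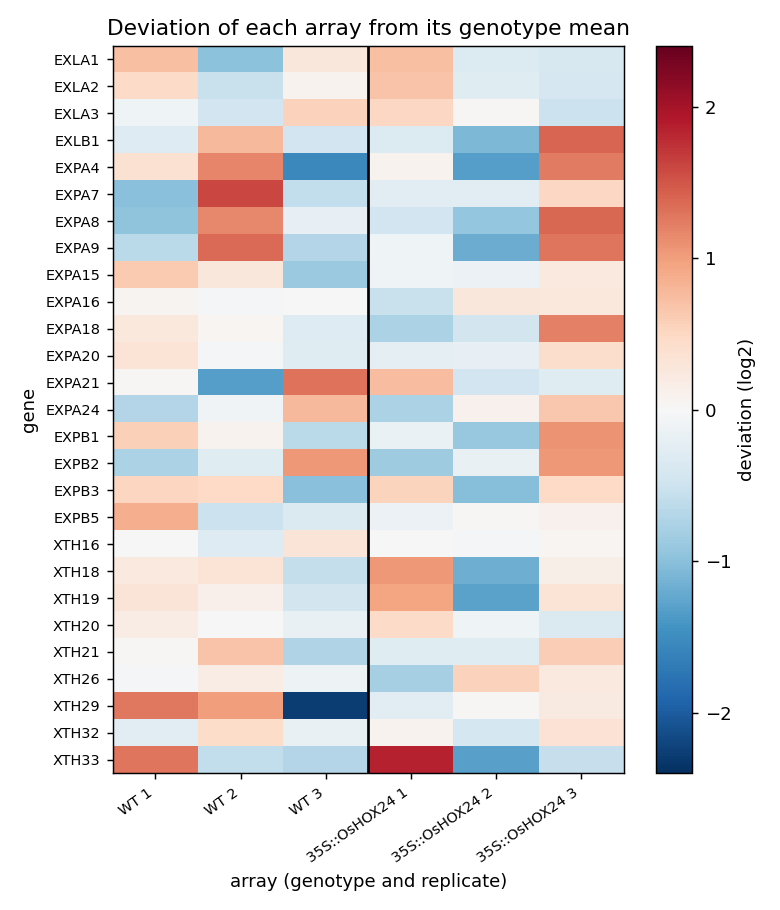
Deviation of each array from the mean of its genotype (log2) for the 27 genes, with red above and blue below the mean and a black line between WT and 35S::OsHOX24. EXPA4, EXPA8, EXPA9 and EXLB1 are red in WT 2 and 35S::OsHOX24 3, while XTH33, EXLA1 and EXLA2 are red in replicate 1 of both genotypes.

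Technical and tissue measures were set beside these orders of arrays, and they shared them only in part. The GAPDH control has probe sets for both ends of its transcript, and the excess of the 3′ over the 5′ signal, which is larger where fewer 5′ ends are present, was 3.25, 1.63 and 4.80 (log2) in WT replicates 1 to 3 and 3.29, 3.63 and 2.39 in 35S::OsHOX24. Within each genotype, the array with the lowest value was that in which 7 members, among them EXPA4, EXPA8, EXPA9 and EXLB1, were highest. The array with the highest value was that in which 9 members, among them EXPB3, XTH18 and XTH19, were lowest. EXLA1, EXLA2 and EXLA3 went the other way. They were lowest in the arrays with the lowest GAPDH value, as were 24.1% of all probe sets. The actin and ubiquitin controls did not follow the order of GAPDH in 35S::OsHOX24, where they were 6.42, 6.01 and 6.57 and 3.67, 3.40 and 3.42, each lowest in replicate 2. In WT both had the order of GAPDH, at 6.27, 5.37 and 6.84 for actin and 2.78, 2.75 and 3.58 for ubiquitin. Of 19 listed shoot and leaf markers, RCA and 3 LHCB4 genes could be read, all above the array median in every array. Their summed linear signal was 39701 to 52688 in WT and 42898 to 56966 in 35S::OsHOX24. The members of the list did not share an order of arrays. LHCB4.1 and LHCB4.2, antenna protein genes of photosystem II, were highest in replicate 1 of both genotypes, as XTH33 was, and LHCB4.2 was at 12.6 and 12.4 (log2) there and at 10.8 to 11.6 in the other arrays. LHCB4.3 and RCA were instead lowest in WT replicate 1, at 8.99 and 14.3, and LHCB4.3 was highest in 35S::OsHOX24 replicate 3, at 10.4. The part of RNA integrity and of tissue composition in the values of the members was not tested. The lists of seed, pollen and flower markers had no gene with a probe set named here.

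Of 19 listed genes for the synthesis and trimming of xyloglucan, the substrate of XTH proteins, 5 could be read, and all belong to the CSLC family of glucan synthases. Of these, 0 were called in either direction. CSLC04, a synthase of the xyloglucan backbone, was at 9.24, 8.08 and 8.27 (log2) in WT and at 9.13, 8.36 and 8.56 in 35S::OsHOX24, so that replicate 1 was the highest array of both genotypes. Its log2 difference was 0.15 (standard error 0.40), and those of CSLC5, CSLC6, ATCSLC08 and CSLC12 were 0.02, -0.28, 0.11 and -0.46. The list had a median log2 difference of 0.02, beside -0.03 over all probe sets. The plasma membrane proton pumps, which acidify the wall, had no gene with a probe set named here.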

How the data were processed

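Total RNA was labelled with the Affymetrix 3′ IVT kit and hybridised to 6 GeneChip arrays. The authors computed MAS5 signals and deposited them as 1 table of log2 values; the MAS5 version is not given in the sources used here. Linear signals had nearly equal trimmed means in all arrays, so the deposited values were already scaled, and 163 to 511 probe sets per array were listed at 0. The number of arrays limits the precision. After 64 control probe sets were left out, 22746 were tested with limma 3.58.1 in R 4.3.3 (lmFit, eBayes) without further normalization or a filter on low signals. The script was tested on simulated data. Names came from the platform table, updated to RefSeq (TAIR10.1) for 13436 of 13513 single-gene probe sets, and no coordinates are printed, since the array values name no genome build. Probe sets of several genes were left out. Array values were given for the root hair members, for the 4 members with the lowest p in each direction, for members with the smallest spread among those above the 75th percentile in every array (2 genes) and, after the values had been seen, for EXPA4, EXPA8, EXPA9, EXPB3, EXLA2, EXLB1, XTH18, XTH19, XTH29 and XTH33. The members and gene lists were chosen with earlier results of these data known. Alternatives were other tests, variance models, scalings, filters and probe set rules, a block and left-out arrays.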

Additional observations from a re-analysis of the deposited data

How the results depend on the processing

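No member was past the thresholds of the study under 10 of the 11 alternatives other than leaving out 1 array, and with array weights 1 was (XTH21). Among these alternatives, leaving out cross-hybridizing probe sets or averaging the probe sets of a gene could not change the values of a member. Each member had 1 probe set, and none was marked as cross-hybridizing. Leaving out 1 array at a time gave 0 to 1 members, EXPA7 without WT replicate 2 and XTH21 without WT replicate 3 or 35S::OsHOX24 replicate 3. The count at an adjusted p under 0.05 was 0 in all settings, with a lowest adjusted p over all probe sets of 0.144 (array weights) to 1, as was the count of the other lists at the thresholds of the study. The median log2 difference of the members stayed between -0.18 and 0.25 without 1 array. These values lay less than 0.51, the pooled SD within genotypes of the members' array medians, from the value reported. The sign of the median was not the same in all settings, with -0.18 without WT replicate 3 and -0.05 with array weights. The directions of EXPA7, EXPA16, EXPA24, EXPB2, EXLA3, XTH20, XTH21, XTH26 and XTH32 were the same in every setting that could be run. That of EXPA18 turned with array weights (-0.091), and without 1 array the log2 difference ranged from -0.33 to 0.65 for EXPA18, from -0.44 to 0.41 for EXLA1 and from -0.062 to 0.25 for XTH16. The cause was not tested. A filter at the 40th percentile of mean signal kept 15 of the 27 members, so EXPA7, XTH21 and 10 others have no value there. Over all probe sets, 208 were called higher and 367 lower, but 29 and 85 with log2(signal + 16), 17 and 40 above the 40th percentile and 112 and 180 with the methods' t-test.

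The labels do not say whether arrays with the same replicate number belong together. Deviations of same-numbered arrays from their genotype means correlated at 0.11, -0.20 and -0.18 over all probe sets. No pairing by number was thus evident, but these values cannot settle it. The highest such correlations were between WT replicate 2 and 35S::OsHOX24 replicate 3 (0.29) and between WT replicate 3 and 35S::OsHOX24 replicate 2 (0.18), the arrays in which several members were together high or low. With the replicate number as a block, 0 members were past the thresholds, and 259 probe sets were higher and 419 lower. EXPB2, at less than 2-fold, had an unadjusted p of 0.0359 with this block and of 0.252 without it (limma).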
